A study of Mus musculus with 9 samples.

Results

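The genes described are 10 markers of macrophages, found by name in the table of the series, which holds 55385 mouse genes. They mark macrophage identity (Adgre1, Cd68, Csf1r and Lyz2), the growth factor that keeps macrophages alive (Csf1), scavenging and repair (Mrc1 and Cd163), and lipid handling (Trem2, Gpnmb and Lgals3). The study sequenced kidneys of C57BL/6 mice in 3 groups, with 3 libraries in each. In the HN group, hyperuricemic nephropathy was induced by feeding adenine, which forms crystals in the tubules, and potassium oxonate, which blocks the breakdown of uric acid. The PEC group was given pectolinarigenin, a plant flavonoid, by mouth while the same disease was being established. The study gives the mice as male and states a dose of PEC, which the labels do not give. In the labels, Control titles also contain the words HN mice, and the stated disease state, control, was followed.

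Macrophages of the kidney come from cells seeded before birth, which renew themselves in place, and from blood monocytes that enter injured tissue. Signals through the receptor encoded by Csf1r, whose ligands are the products of Csf1 and Il34, sustain both. In injured tissue, macrophages take up dead cells and lipid, and many then express scavenger receptors and genes of lysosomes and lipid handling, which are commonly read as signs of repair or of scarring.

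Reads counted on genes ranged from 57714111 to 81069646 per library, with a median of 74397038. Levels are given as FPKM from the authors' table, which are scaled to gene length and to library size and allow genes to be set side by side. The length behind these FPKM was close to the merged exons of all transcripts of a gene (1.11 times that length for Adgre1, Cd68 and Trem2 alike). A gene with long minor transcripts, such as Gpnmb (6514 bases of merged exons, 3701 in the longest transcript), therefore has a lower FPKM than its longest transcript alone would give. The tissue carried the defining genes of kidney epithelium, with Umod at a mean of 878 FPKM and Slc34a1 at 708 FPKM in Control.

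Differences between groups were tested on the counts with edgeR, over the 21392 genes that passed a filter on low counts, and all 10 macrophage genes passed it. Calls required an adjusted p of at most 0.05 together with a change of 1.5-fold or more. With 3 libraries per group, an exact permutation test of a single value cannot go below p = 0.10. In whole kidney, fewer macrophages and less RNA per macrophage cannot be told apart.

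On the first principal component of all tested genes (40.5% of the variance), PEC libraries (46.7 to 65.8) lay near HN libraries (60.3 to 66.6), with Control apart (-120.3 to -113.2). On the second component, which held 27.2% of the variance, HN libraries lay between 74.6 and 85.7 and PEC libraries between -90.9 and -79.8, with Control between them (0.21 to 7.20). Whether PEC or the preparation of the libraries set PEC apart from HN was not tested. Ribosomal RNA loci took 0.296%, 1.72% and 0.302% of the counts in PEC replicates 1, 2 and 3, and at most 0.00419% in every Control and HN library. Between PEC and HN, the median log2 fold change fell with transcript length, from 0.52 among the shortest tested genes (up to 1256 bases) to -0.42 among the longest (from 4655 bases). The labels give no batch, so a batch of library preparation and the PEC group cannot be told apart. For the 10 macrophage genes the difference of PEC and HN is therefore also given with the dependence on length and GC content removed, and for genes of the other lists where the removal changed a call between PEC and HN. Between PEC and Control the medians also fell with length, from 0.32 to -0.25. Mitochondrial genes took 12.9% to 16.3% of the counts in Control, 6.01% to 6.34% in HN and 10.3% to 13.6% in PEC libraries. The mitochondrial share thus moved against the macrophage genes between Control and HN, and its part in the results was not tested.

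In Control kidneys the 10 genes spanned a wide range of levels. Lgals3 (22.6 FPKM ± 9.72, SD, n = 3) and Lyz2 (14.5 ± 1.00) stood highest and overlapped, and Csf1r followed at 6.58 FPKM ± 0.830 (SD, n = 3). Csf1, Cd68 and Adgre1 had means between 1.28 and 1.65 FPKM, where Cd68 overlapped both others and Csf1 lay above Adgre1 in every library. Mrc1 came next at 0.523 FPKM ± 0.0651 (SD, n = 3). Cd163, Gpnmb and Trem2 all had means at or below 0.0667 FPKM and overlapped one another. In HN kidneys Lyz2 led with 557 FPKM ± 31.8 (SD, n = 3), ahead of Lgals3 at 65.5 ± 11.02 and Csf1r at 28.99 ± 1.10. There, Adgre1 (24.8 FPKM) overlapped Cd68 (22.9 FPKM), and Csf1 (12.9 FPKM) overlapped Mrc1 (12.7 FPKM). In PEC kidneys Lyz2 and Lgals3 again stood highest, while Adgre1 (5.10 FPKM ± 1.66, SD, n = 3) lay below Cd68 (17.3 FPKM ± 1.61) without overlap. Cd163 was the lowest of the 10 in HN and in PEC kidneys.

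**Figure D1:**
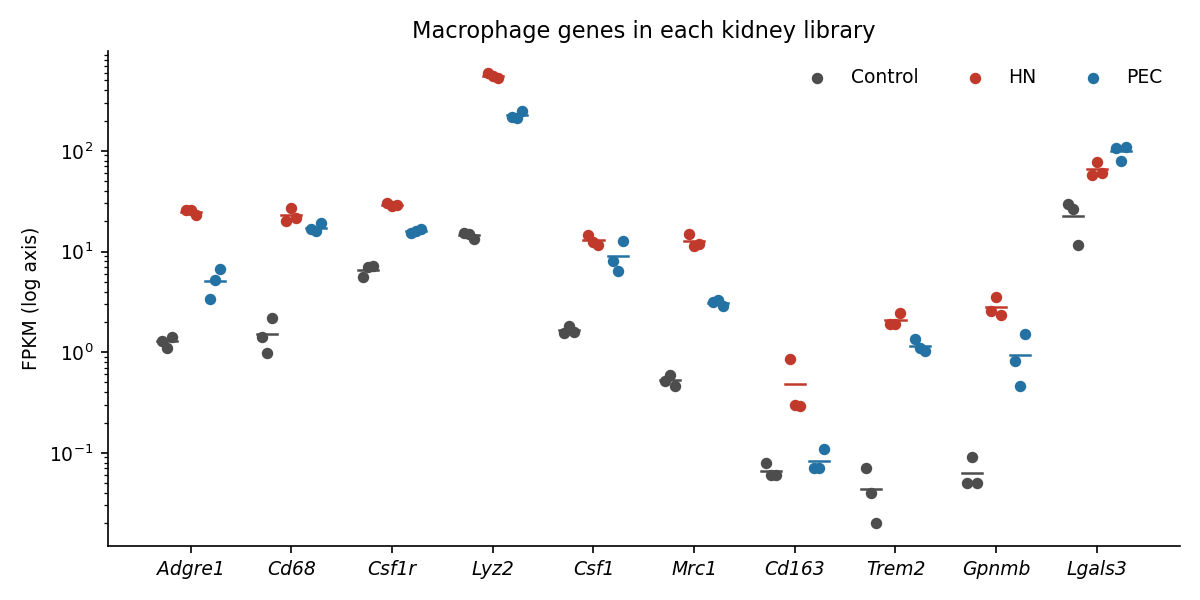
FPKM of the 10 macrophage genes (log axis) in each library, with Control in grey, HN in red and PEC in blue; each point is a library and each short line a group mean. Every gene is higher in the 3 HN than in the 3 Control libraries, and the PEC libraries lie near the HN libraries for Cd68 and near the Control libraries for Cd163.

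Promoter sequences of RefSeq (build GRCm38.p6) were matched for 8 of the 10 genes, all but Adgre1 and Csf1r. The 250 bases before the RefSeq start were searched on both strands for GAGGAA, the core bound by the myeloid factor PU.1, for TGACTCA, bound by AP-1, and for the E-boxes CACGTG and CATGTG, the kind bound by MITF and its relatives. GAGGAA was found in 3 of the 8, those of Mrc1, Cd68 and Trem2, and in 23.3% of all 32851 promoters. TGACTCA was found in the promoter of Cd68 alone among the 8 (4.46% of all promoters), CATGTG in that of Mrc1 alone (12.3% of all) and CACGTG in 0 of the 8 (6.02% of all). The 3 promoters with GAGGAA are shown with the matches in capitals. They lie on the plus strand at chr2:14229164-14229391 for Mrc1, on the minus strand at chr11:69666171-69666420 for Cd68 and on the plus strand at chr17:48346151-48346400 for Trem2. The Mrc1 stretch has 228 bases, since the last 22 of the window lie within the annotated gene. Among those not shown, 49 bases of the Lyz2 window lie within its gene, and the Lgals3 window lies wholly within its gene, downstream of the first annotated start.
Mrc1: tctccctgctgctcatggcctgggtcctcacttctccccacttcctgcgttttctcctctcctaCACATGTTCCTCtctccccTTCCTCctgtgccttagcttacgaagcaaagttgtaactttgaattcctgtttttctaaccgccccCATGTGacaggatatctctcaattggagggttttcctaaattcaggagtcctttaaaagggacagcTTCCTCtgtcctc
Cd68: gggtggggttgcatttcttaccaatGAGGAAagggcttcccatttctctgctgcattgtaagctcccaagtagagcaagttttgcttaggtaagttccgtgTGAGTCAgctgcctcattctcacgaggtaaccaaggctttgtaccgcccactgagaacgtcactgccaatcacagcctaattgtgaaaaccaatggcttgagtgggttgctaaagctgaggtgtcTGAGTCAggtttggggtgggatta
Trem2: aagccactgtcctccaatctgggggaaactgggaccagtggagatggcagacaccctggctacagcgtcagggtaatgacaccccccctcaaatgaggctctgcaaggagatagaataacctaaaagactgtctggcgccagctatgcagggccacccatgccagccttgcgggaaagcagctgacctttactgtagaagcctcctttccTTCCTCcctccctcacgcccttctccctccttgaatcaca
The Mrc1 stretch holds TTCCTC, the reverse of GAGGAA, at 3 places, the first directly after CACATG, the reverse of CATGTG, and CATGTG itself once. The Cd68 stretch holds GAGGAA once and TGAGTCA, the reverse of TGACTCA, at 2 places, and the Trem2 stretch holds TTCCTC once. A match of these letters describes the sequence only.

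The comparison of HN with Control asks what the nephropathy changed. All 10 macrophage genes were called higher in HN kidneys and 0 lower, where 17.7% of all tested genes were called higher and 14.7% lower. Their median log2 fold change was 3.54, against 0.00 over all tested genes. Lgals3 rose by 2.02-fold and Csf1r by 3.04-fold, and the other genes by 5.01-fold or more. For each of the 10 genes, all HN values in FPKM lay above all Control values.

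Adgre1 (ENSMUSG00000004730, GRCm38 chromosome 17, 57358691 to 57483527, plus strand) encodes F4/80, the surface receptor most used to identify mouse macrophages. Its FPKM was 1.3, 1.11 and 1.43 in Control replicates 2, 4 and 5, and 25.6, 25.9 and 22.8 in HN replicates 4, 8 and 12. The HN libraries lay close together and far above Control. The log2 fold change was 3.74 (SE 0.25, adjusted p = 6.85e-06, edgeR), a 13.3-fold rise. Lyz2 (ENSMUSG00000069516), the lysozyme of myeloid cells, had 15.3, 14.8 and 13.4 FPKM in Control and 590.3, 554.3 and 526.9 FPKM in HN libraries. No library departed from its group, and the log2 fold change of 4.73 (SE 0.11, adjusted p = 2.43e-07, edgeR) was a 26.6-fold rise. Transcripts of Lyz2 and its neighbour Lyz1 are 95.8% identical and the authors' treatment of shared reads is not given in the sources used here, so reads of one may be counted on the other. Lyz1 itself had at most 449 counts in an HN library, against at least 57517 for Lyz2.

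Cd68 (ENSMUSG00000018774), a membrane protein of lysosomes and endosomes, had 1.42, 0.990 and 2.16 FPKM in Control and 20.1, 27.03 and 21.6 FPKM in HN libraries. These groups were far apart, with a log2 fold change of 3.35 (SE 0.28, adjusted p = 2.05e-05, edgeR). Csf1r, which encodes the receptor for both macrophage growth factors, started from a higher level and rose less. Its FPKM went from 5.62, 7.01 and 7.10 in Control to 30.2, 28.04 and 28.7 in HN libraries, a log2 fold change of 1.60 (SE 0.11, adjusted p = 8.53e-06, edgeR). In the GENCODE M21 annotation, the end of Csf1r is shared with Hmgxb3 on the opposite strand. The transcripts are identical over 873 bases, 18.6% of the longest Csf1r transcript. In the authors' coordinates these genes do not overlap, as Csf1r ends at 61131134 and Hmgxb3 starts at 61131277. Hmgxb3 was lower than Csf1r in every group (2.91 FPKM in Control and 3.37 FPKM in HN), and was not called between HN and Control. Csf1 (ENSMUSG00000014599), the ligand, had 1.54 to 1.84 FPKM in Control and 11.7 to 14.7 FPKM in HN libraries, with a log2 fold change of 2.43 (SE 0.24, adjusted p = 5.72e-05, edgeR).

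Mrc1 (ENSMUSG00000026712) encodes the mannose receptor CD206, a scavenging receptor common on resident and repair macrophages, and Cd163 the receptor for haemoglobin bound to haptoglobin. Mrc1 had 0.520, 0.590 and 0.460 FPKM in Control and 14.8, 11.4 and 11.8 FPKM in HN libraries. The HN values were alike and the fold change was 16.8 (log2 4.07, SE 0.15, adjusted p = 1.17e-06, edgeR). Cd163 was at the low end of detection, with 27 to 38 counts in Control and 134 to 385 counts in HN libraries. Its FPKM was 0.860 in HN replicate 4 and 0.300 and 0.290 in replicates 8 and 12, so that 1 library set much of its mean. The log2 fold change of Cd163 was 2.32 (SE 0.50, adjusted p = 0.00487, edgeR) with that library and 1.58 without it, where the call held (adjusted p = 0.0131).

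The genes of lipid handling differed widely in their level in Control. Trem2 (ENSMUSG00000023992), a receptor for lipids and lipoproteins on tissue macrophages, had 0.0700, 0.0400 and 0.0200 FPKM in Control and 1.92, 1.90 and 2.46 FPKM in HN libraries. Its Control counts were only 8 to 29, so that it passed the filter on low counts through the HN and PEC libraries, and the log2 fold change of 5.02 (SE 0.39) rests on a base near 0. Gpnmb (ENSMUSG00000029816), a glycoprotein of lysosomes that is induced in lipid-laden macrophages, had 0.05, 0.09 and 0.05 FPKM in Control and 2.54, 3.54 and 2.33 FPKM in HN libraries. It had 27 to 51 counts in Control, and its log2 fold change was 4.90 (SE 0.49, adjusted p = 5.35e-05, edgeR). Lgals3 (ENSMUSG00000050335) encodes galectin-3, a lectin of macrophages that kidney epithelium also makes. Its Control values of 29.6, 26.7 and 11.5 FPKM were already high, and those of HN were 57.66, 78.1 and 60.8 FPKM. Lgals3 had a log2 fold change of 1.01 (SE 0.30, adjusted p = 0.0221, edgeR), and without HN replicate 8 it was no longer called (log2 0.88, adjusted p = 0.0763).

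The comparison of PEC with HN asks what pectolinarigenin changed in the model. The same HN libraries enter it and the comparison of HN with Control, so that the values of a gene in the 2 comparisons are not independent. Of the 10 genes, 6 were called lower in PEC kidneys (Adgre1, Csf1r, Lyz2, Mrc1, Cd163 and Gpnmb) and 0 higher, where 15.3% of all tested genes were called lower and 13.4% higher. Cd68, Csf1, Trem2 and Lgals3 were not called. The median log2 fold change of the 10 genes was -0.86, against -0.02 over all tested genes. Among the identity markers, Adgre1 was 4.19-fold lower and Cd68 was not called. With the dependence on length and GC content removed, 5 of the 10 were called lower, since Csf1r missed the fold change.

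Adgre1 had 3.37, 5.23 and 6.69 FPKM in PEC replicates 1, 2 and 3, all far below the lowest HN value of 22.8. The log2 fold change was -2.07 (SE 0.23, adjusted p = 0.000207, edgeR) and -2.06 with length and GC dependence removed. Lyz2 had 215.2, 212.9 and 251.7 FPKM in PEC libraries, less than the lowest HN value of 526.9 and more than any Control value. Its log2 fold change was -1.08 (SE 0.10, adjusted p = 8.12e-05, edgeR), and -1.40 with length and GC dependence removed. Lyz1, at 3.42 FPKM in PEC and 3.11 FPKM in HN, was not called (log2 0.34, SE 0.64). Csf1r had 15.1, 16.1 and 16.9 FPKM in PEC libraries, with a log2 fold change of -0.64 (SE 0.11, adjusted p = 0.00197, edgeR), just past the fold needed for a call. It was -0.34 with length dependence removed and -0.55 with length and GC dependence removed, both not called, and -0.86 and called with GC dependence alone removed.

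Cd68 had 16.7, 16.1 and 19.1 FPKM in PEC libraries, next to an HN range of 20.1 to 27.03. The PEC values lay just under the HN values on FPKM, without overlap. After edgeR's scaling between libraries the log2 difference was -0.19 (SE 0.25, adjusted p = 0.597), with a 95% interval from -0.76 to 0.38. Cd68 stood at -0.61 with length and GC dependence removed (SE 0.27, adjusted p = 0.112, edgeR), over 2 times its error, and was not called either. For Csf1, PEC replicates had 8.0, 6.38 and 12.8 FPKM. Replicate 3 reached the HN range and the other replicates stayed under it, and the log2 difference was -0.30 (SE 0.23, adjusted p = 0.346, edgeR). It was -0.28 with length and GC dependence removed. Without PEC replicate 3, Csf1 was called lower (log2 -0.60, adjusted p = 0.0188).

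Mrc1 had 3.14, 3.27 and 2.86 FPKM in PEC libraries, which lay close together between Control and HN. Its fall by 1.82 on the log2 scale (SE 0.14, adjusted p = 4.22e-05, edgeR) was 3.54-fold, and the value was -1.31 with length and GC dependence removed. Cd163 had 0.0700, 0.0700 and 0.110 FPKM in PEC libraries, from 28 to 42 counts, a range that overlapped Control (0.0600 to 0.0800 FPKM). The log2 fold change was -2.28 (SE 0.50, adjusted p = 0.00635, edgeR), -2.10 with length and GC dependence removed, and -1.55 without HN replicate 4, with the call kept (adjusted p = 0.0181).

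Trem2 had 1.36, 1.09 and 1.03 FPKM in PEC libraries, below the HN values on FPKM. Its log2 difference of -0.63 (SE 0.32, adjusted p = 0.149, edgeR) did not pass, with a 95% interval from -1.36 to 0.09, and was -0.48 with length and GC dependence removed. Gpnmb had 0.810, 0.460 and 1.52 FPKM in PEC libraries, which varied widely and stayed below HN. It was called lower (log2 -1.37, SE 0.41, adjusted p = 0.0261, edgeR), but the call did not survive the removal of HN replicate 4, HN replicate 8, PEC replicate 1 or PEC replicate 2. The values without each of these were -1.42, -1.19, -1.29 and -1.06, with adjusted p between 0.0519 and 0.0858, and with length and GC dependence removed it was -1.34. Lgals3 moved the other way, with 107.3, 80.1 and 108.9 FPKM in PEC libraries, all above the highest HN value of 78.1. Its log2 difference of 0.81 (SE 0.29, adjusted p = 0.0558, edgeR) just missed the threshold, and it was 0.40 with length and GC dependence removed (adjusted p = 0.297).

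**Figure D2:**
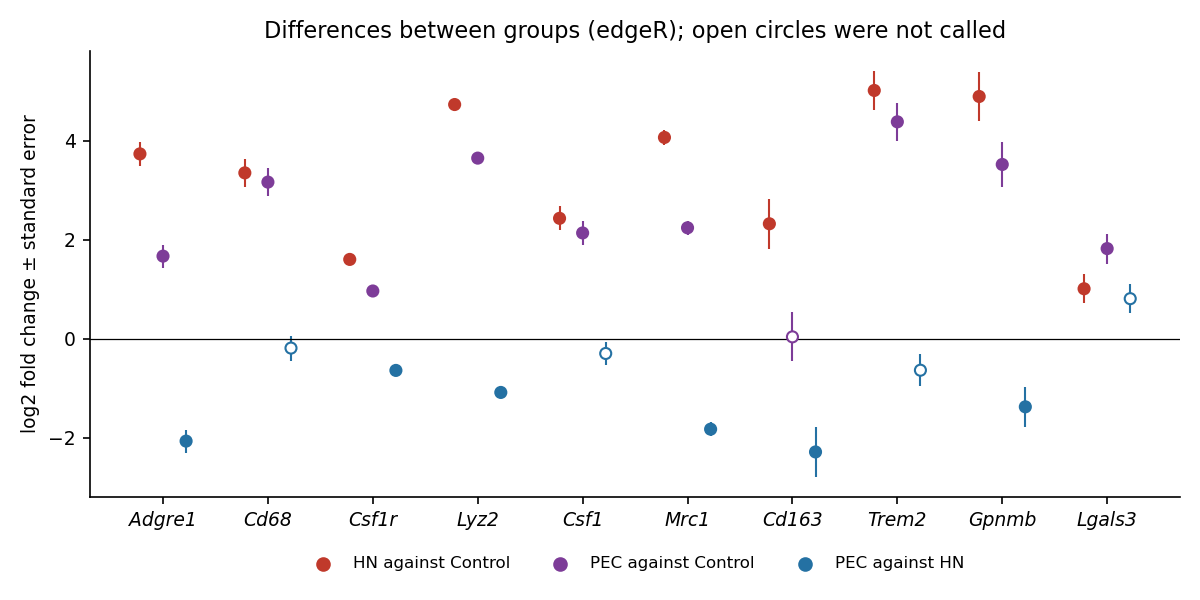
Log2 fold change from edgeR with its standard error for the 10 macrophage genes, HN against Control in red, PEC against Control in purple and PEC against HN in blue; filled circles were called and open circles were not. For PEC against HN, 6 filled circles lie below 0, and Cd68, Csf1, Trem2 and Lgals3 are open.

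The longest annotated transcripts of the genes differed. Among the genes called lower, they had 5374 bases in Mrc1, 4701 in Csf1r, 4443 in Cd163, 3701 in Gpnmb, 3238 in Adgre1 and 1316 in Lyz2. Among those not called, they had 4784 bases in Trem2, 4176 in Csf1, 1419 in Lgals3 and 1230 in Cd68. Removing the dependence on length and GC content brought Mrc1 nearer to 0 and moved Cd68, Lyz2 and Lgals3 downward, and it left Adgre1 where it was. Adgre1, Mrc1 and Lyz2 lay below Cd68, and Cd68 below Lgals3, with and without the removal. Mrc1 and Lyz2 changed places, from -1.82 and -1.08 to -1.31 and -1.40.

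**Figure D3:**
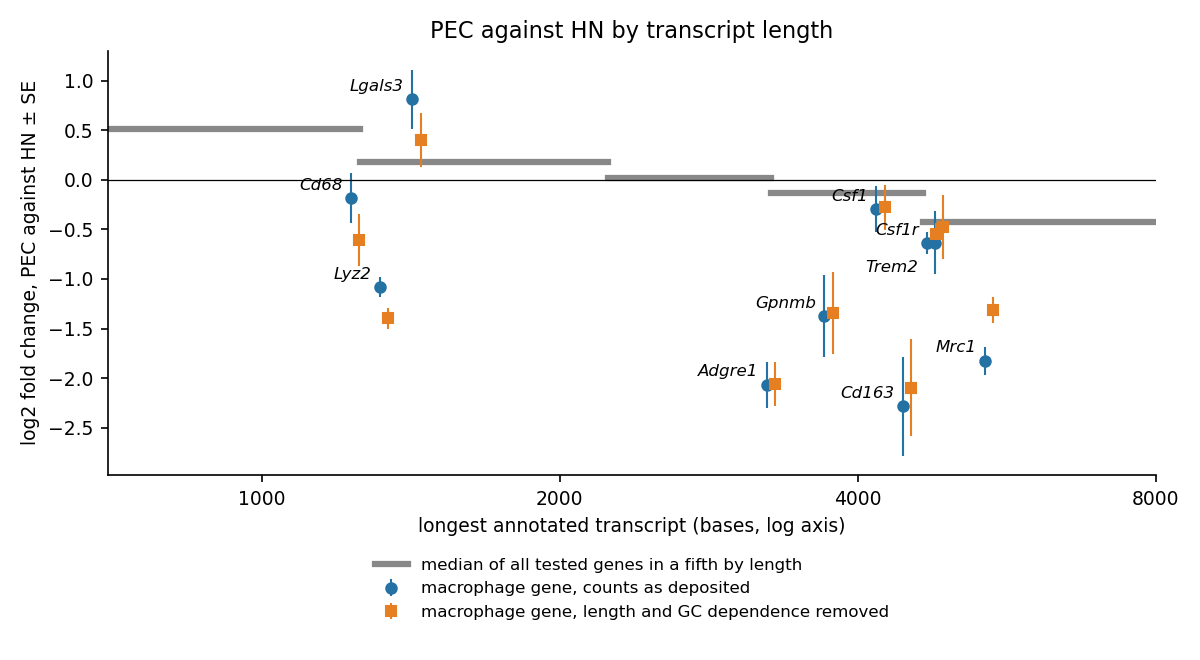
Log2 fold change of PEC against HN with its standard error for the 10 macrophage genes, plotted against the longest annotated transcript in bases (log axis), from the counts as deposited (blue circles) and with length and GC dependence removed (orange squares). Grey lines are medians of all tested genes in 5 equal classes of length, from 0.52 in the shortest to -0.42 in the longest. Adgre1 stays near -2.06 and Mrc1 moves from -1.82 to -1.31.

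The comparison of PEC with Control asks what still differed from untreated kidneys, and it shares the PEC and Control libraries with the comparisons above. Of the 10 genes, 9 were called higher in PEC than in Control kidneys and 0 lower, where 18.9% of all tested genes were called higher and 17.4% lower. Cd163 was the exception, at a log2 difference of 0.04 (SE 0.50, adjusted p = 0.956, edgeR) with a 95% interval from -1.08 to 1.16. Trem2 (log2 4.38, SE 0.38), Lyz2 (3.65, SE 0.11), Gpnmb (3.52, SE 0.46) and Cd68 (3.17, SE 0.28) all stood far above Control, Trem2 and Gpnmb from a base near 0. Mrc1 (2.24, SE 0.14), Csf1 (2.14, SE 0.24), Lgals3 (1.82, SE 0.30), Adgre1 (1.67, SE 0.23) and Csf1r (0.97, SE 0.11) were called as well. With length and GC dependence removed, the same 9 were called, where 18.4% of all tested genes were called higher and 15.2% lower. Side by side, Cd68 stood 10.2-fold above Control in HN and 8.98-fold in PEC kidneys, and Adgre1 13.3-fold and 3.18-fold.

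Each gene was set against Adgre1 within its own library, as the log2 ratio of the counts, which does not depend on the scaling of libraries but carries any dependence on length. The count of Cd68 relative to that of Adgre1 was -1.22, -1.53 and -0.76 on the log2 scale in Control, against -1.72, -1.31 and -1.44 in HN libraries and 0.94, 0.26 and 0.15 in those of PEC. Control and HN overlapped, and every PEC library lay above both. The difference of PEC and HN was 1.94, a 3.83-fold higher ratio (exact two-sided permutation p = 0.1, the smallest possible). It was 1.505, or 2.84-fold, with length and GC dependence removed from the counts, again without overlap, and that of HN and Control was -0.32 (exact two-sided permutation p = 0.4). Lgals3 relative to Adgre1 fell from 3.71, 3.78 and 2.21 in Control to 0.37, 0.79 and 0.61 in HN, and stood at 4.19, 3.14 and 3.22 in PEC libraries. The PEC libraries thus overlapped Control and lay above every HN library. The difference was -2.64 for HN against Control and 2.93 for PEC against HN, the latter 2.51 with length and GC dependence removed.

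The log2 ratio of Mrc1 to Adgre1 was -0.31 ± 0.37 in Control, 0.00 ± 0.20 in HN and 0.31 ± 0.56 in PEC libraries (SD, n = 3), with overlap between each pair of neighbouring groups. The differences were 0.32 for HN against Control and 0.30 for PEC against HN. With length and GC dependence removed, the latter was 0.80 and every PEC library lay above every HN library, so that Mrc1 was then higher relative to Adgre1 in PEC kidneys. Cd163 relative to Adgre1 differed by 0.00 between PEC and HN, which overlapped, but by 0.49 and without overlap when HN replicate 4 was left out. It was 1.61 lower in HN than in Control on the log2 scale (-5.12 against -3.51). For the other genes the log2 difference of PEC and HN was 1.03 (Lyz2), 1.48 (Trem2), 1.48 (Csf1r), 1.77 (Csf1) and 0.60 (Gpnmb), and with length and GC dependence removed 0.71, 1.63, 1.56, 1.78 and 0.62 in the same order, with Cd163 at 0.17. Between HN and Control it was 0.99 (Lyz2), 1.46 (Trem2), -2.13 (Csf1r), -1.32 (Csf1) and 1.19 (Gpnmb), and the difference for Trem2 fell to 0.85 without Control replicate 5, which had 8 counts of Trem2. Groups overlapped for Gpnmb in PEC and HN, and not for Lyz2, Trem2, Csf1r or Csf1 in either comparison. Set against Ptprc, PEC and HN overlapped for Lyz2 and Trem2, and HN and Control for Csf1 and Cd163. Set against Csf1r in place of Adgre1, Mrc1 was higher in HN than in Control by 2.45 and lower in PEC than in HN (-1.18), and set against Ptprc the latter difference was 0.13. Relative to Csf1r, Cd68 was higher in HN than in Control (1.82), and higher in PEC than in HN by only 0.46, or 1.37-fold. Csf1 was then higher in HN than in Control (0.82). Lyz2 (-0.45), Cd163 (-1.48) and, with overlap, Gpnmb (-0.88) were then lower in PEC than in HN. Ratios to Csf1r and Ptprc were not computed with length and GC dependence removed. The log2 fold changes of PEC against HN with the removal were -0.61 for Cd68 and -0.55 for Csf1r, beside -0.19 and -0.64 without it. Cd68 thus no longer stood above Csf1r. With the removal, Mrc1 (-1.31) also lay below Ptprc (-1.06).

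**Figure D4:**
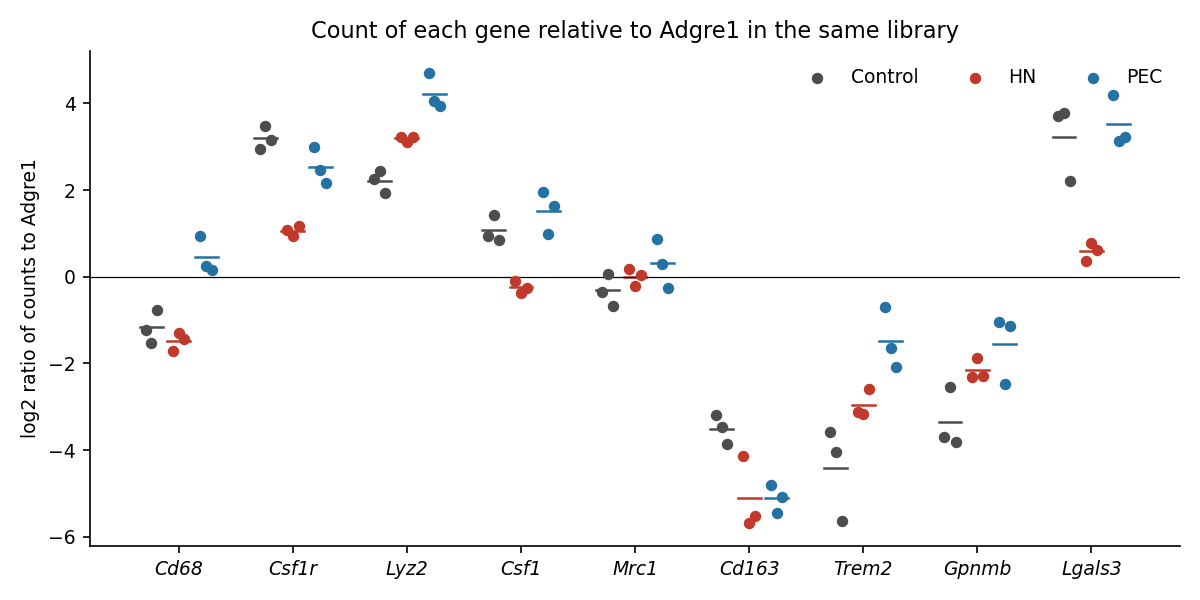
Log2 ratio of the count of each macrophage gene to the count of Adgre1 in the same library, with Control in grey, HN in red and PEC in blue; points are libraries and short lines group means. Mrc1 overlaps between groups, while Cd68 and Lgals3 are higher relative to Adgre1 in every PEC than in every HN library.

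The counts of the lists that follow are to be set beside the shares of all tested genes. Higher and lower calls were 17.7% and 14.7% for HN against Control, 13.4% and 15.3% for PEC against HN, and 18.9% and 17.4% for PEC against Control. For PEC against HN, removal of length and GC dependence left calls on 11.99% of genes as higher and on 10.99% as lower. The shares with the removal were 17.3% and 15.1% for HN against Control, and 18.4% and 15.2% for PEC against Control. Of 22 other genes of macrophages and monocytes, 20 rose and 1 fell past the thresholds from Control to HN (median log2 3.19), and 14 were called lower and 0 higher in PEC than in HN (median -0.81), and the number was also 14 with length and GC dependence removed (median -1.08). The genes were not all the same: Ccr2 (-0.96 to -0.23) and Ms4a7 (-1.13 to -0.80) lost the call, and Fcgr3 (-0.75 to -1.08) and Aif1 (-0.65 to -1.11) gained it. Against Control, 18 of the 22 were called higher and 1 lower in PEC kidneys. C1qa, which encodes a chain of complement C1q, had 12.98 FPKM in Control, 248.8 FPKM in HN and 94.8 FPKM in PEC kidneys. It fell by 1.17 on the log2 scale between HN and PEC (SE 0.23, adjusted p = 0.00363, edgeR), beside -1.06 for C1qb, -1.02 for the lysosomal protease gene Ctss and -0.61 for the adaptor gene Tyrobp, all called. Mertk, a receptor for the uptake of dead cells, was the gene called lower in HN (log2 -0.69, SE 0.15, adjusted p = 0.00572, edgeR), though its groups overlapped in FPKM. Ptprc, the gene of the pan-leukocyte marker CD45, was 5.51-fold higher in HN than in Control and 3.47-fold lower in PEC than in HN, or 2.08-fold with length and GC dependence removed, still called. Its FPKM in PEC replicate 2 (2.01) was above that of replicates 1 and 3 (0.720 and 0.810).

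On the axis of colony-stimulating factors, Il34, the second ligand of the receptor, rose with Csf1, from 7.58 FPKM in Control to 35.5 FPKM in HN (log2 1.69, SE 0.17), and had 26.01 FPKM in PEC kidneys. All 5 tested genes of this list, of 6, were called higher in HN than in Control (median log2 2.26) and all 5 in PEC than in Control, where Csf3, with 0 counts in every Control library, passed the filter through the HN and PEC libraries. Only Csf2rb was lower in PEC than in HN (log2 -0.64), and with length and GC dependence removed it was not called (-0.52). The differences of Il34 (-0.23), Csf2ra (0.02) and Csf3r (-0.49) were not called. Among ligands that recruit monocytes, 5 of 6 were called higher in HN than in Control (median 4.33), and the same number in PEC than in Control. Vcam1, an adhesion molecule, reached 43.1 FPKM in HN from 1.19 in Control and was lower in PEC at 20.7 FPKM (log2 -0.84, SE 0.15), a call that was lost with length and GC dependence removed (-0.32). The differences of PEC and HN were not called for Ccl2 (-0.69) and Icam1 (0.17), and Ccl7 was the other ligand called lower (-1.12, and -1.30 with the removal). Ccl12 was not called (-1.27) and was called lower with the removal (-1.49). Cx3cl1, the ligand of the fractalkine receptor, was called higher in PEC than in HN (log2 2.25, SE 0.50, adjusted p = 0.00718, edgeR).

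Genes used to mark resident macrophages did not move as 1 group. Of 10 such genes 7 were tested, and Vsig4 had 0 counts in all 9 libraries. In HN against Control 4 were called higher and 1 lower, and in PEC against HN 2 were called higher and 3 lower, with a median log2 of 0.15. The 2 called higher have short transcripts (Folr2 1204 bases, Cbr2 1110) and the 3 called lower long ones (Stab1 7999, Siglec1 6387, F13a1 3952). With length and GC dependence removed, only Folr2 (2.12) was still called higher and only Stab1 (-1.03) was still called lower. F13a1 lost the call at a fold nearly as large (-1.18 to -0.99, adjusted p = 0.0752, edgeR). In PEC against Control 4 of the 7 were called higher and 0 lower, and with the removal 2, Folr2 (0.96) and Cbr2 (1.25) being lost. Folr2, the folate receptor of resident macrophages, went from 0.423 FPKM in Control to 0.257 FPKM in HN kidneys, and was 1.29 FPKM with PEC. It was called lower in HN than in Control (log2 -1.26, SE 0.37, with overlap in FPKM) and higher in PEC than in HN (log2 2.52, SE 0.38, adjusted p = 0.000901, edgeR). Cbr2 was also called higher in PEC than in HN (log2 1.80, SE 0.53), with 2.83, 2.3 and 10.05 FPKM in the PEC libraries, so that replicate 3 set much of its mean, and it was not called with the removal (1.37). The scavenger receptor gene Stab1 (log2 -1.40, SE 0.12) and Siglec1, which encodes sialoadhesin (log2 -1.95, SE 0.60), were called lower, Siglec1 without a call after the removal (-1.69), and Clec10a was not called (0.40).

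Most genes of alternative and of classical activation were called higher in HN than in Control, several of them from a base near 0. Of the 8 tested genes of alternative activation, of 9, 7 were called higher in HN than in Control (median log2 4.04) and 7 in PEC than in Control, and 1, the scavenger receptor gene Msr1, was called lower in PEC than in HN (log2 -1.74, SE 0.48), though not with length and GC dependence removed (-1.21). Among the 7, Control libraries had at most 8 counts of Retnla, 12 of Ccl22, 4 of Pdcd1lg2 and 20 of Ccl17, so that the filter let these genes in through the HN or PEC libraries. The PEC and HN kidneys had 5.10 and 4.56 FPKM of Ccl17 and 3.72 and 3.05 FPKM of Retnla, neither called, and Il4ra missed the fold change (log2 -0.49). Of 12 genes of classical activation, 10 were called higher in HN than in Control (median log2 2.69), 9 in PEC than in Control, and 1, Cd86, was lower in PEC than in HN. These counts take in Il6, with 0 counts in every Control library, and Tnf, with 4 to 20, and for HN also Il23a, with 0 to 12, all let in by the HN or PEC libraries. Il1b was called lower as well once length and GC dependence were removed (-1.07). Cxcl10 (-0.11), Ccl5 (-0.32), Il1b (-0.84) and Cxcl9 (-0.32) were not called between PEC and HN.

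Of 20 genes of lipid handling and lysosomes, HN kidneys had 11 called higher and 3 called lower than Control (median log2 0.76), 5 were called lower in PEC than in HN (median -0.16), and 10 were higher and 3 lower in PEC than in Control. Between PEC and HN, removal of length and GC dependence gave 4 of the 20 lower and 2, Lpl (0.96) and Cd36 (0.95), higher, with Mmp12 lost (-1.09 to -0.52). Spp1, which encodes osteopontin and is also made by tubules, was the most abundant, with 390.3 FPKM in Control, 10666 FPKM in HN and 7432 FPKM in PEC kidneys. Its difference of -0.31 on the log2 scale between PEC and HN (SE 0.13) was not called. Apoe, the apolipoprotein of lipid-loaded macrophages, rose from 49.5 FPKM in Control to 445.2 FPKM in HN and was lower in PEC kidneys at 130.8 FPKM (log2 -1.55, SE 0.21, adjusted p = 0.000571, edgeR). The lysosomal genes Ctsd (-0.07) and Cd63 (0.34) were not called between PEC and HN. Lpl, Cd36 and Lipa were the genes called lower in HN than in Control (log2 -2.70, -2.30 and -0.86), and kidney epithelium or vessels express them as well.

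**Figure D5:**
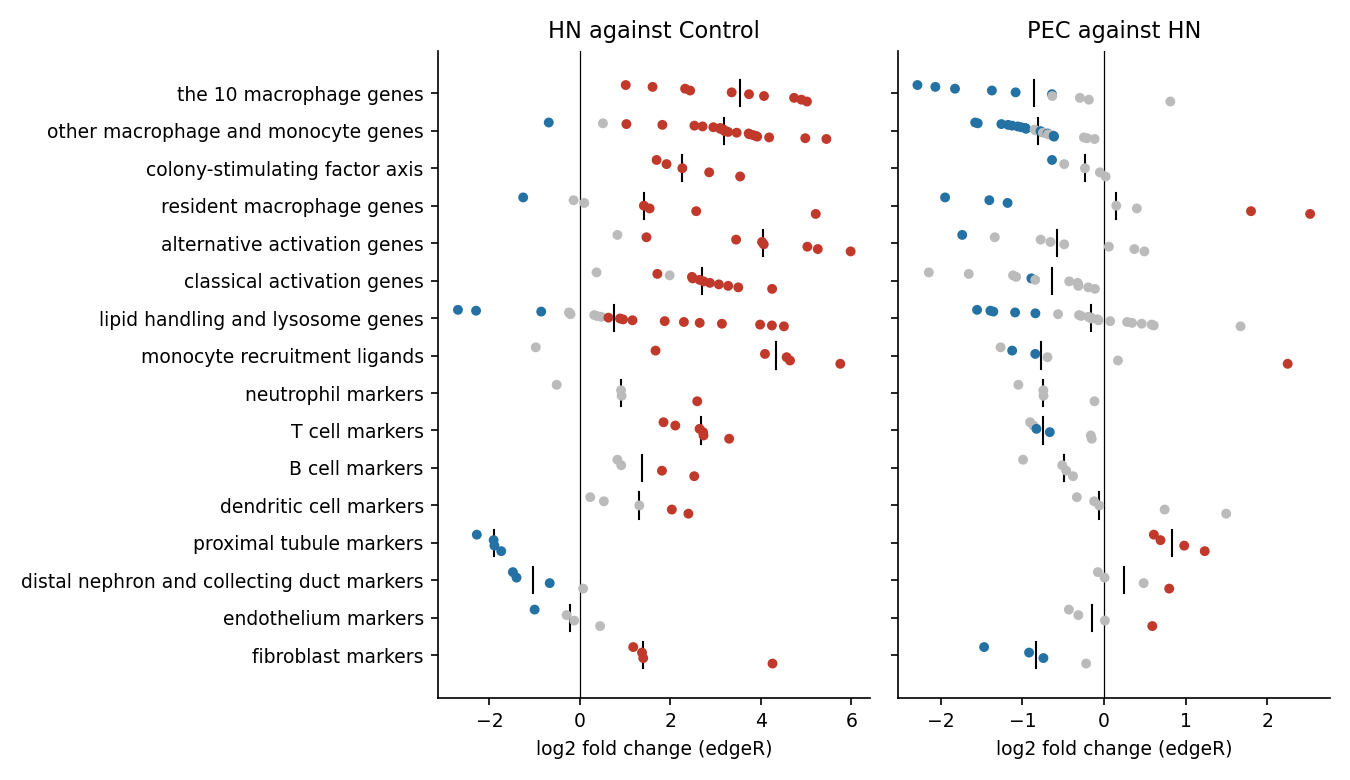
Log2 fold change from edgeR for every tested gene of each list, HN against Control on the left and PEC against HN on the right; red points were called higher, blue lower and grey were not called, and black lines are medians. Csf3 and Il6, which had 0 counts in every Control library, are drawn on the left at the lower bound given by 3 counts per Control library. The median of PEC against HN is -0.86 for the 10 macrophage genes and 0.15 for genes of resident macrophages.

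Markers of some other cells also differed between the groups, in either direction, and their part in the results above was not tested. The 4 fibroblast markers summed to 23.7, 23.3 and 16.8 FPKM in Control, 141.6, 153.6 and 137.4 FPKM in HN and 72.6, 76.6 and 67.07 FPKM in PEC libraries. Col1a1 was the most abundant of them in HN and PEC kidneys and the least abundant in Control. All 4 were called higher in HN than in Control, 3 were called lower in PEC than in HN (Pdgfrb was not), and 3 were higher in PEC than in Control. With length and GC dependence removed, only Pdgfra (-1.09) stayed lower in PEC than in HN, with Col1a1 at -0.56 and Dcn at -0.0107. The 4 proximal tubule markers, led by Slc34a1, summed to 856.5, 914.6 and 942.1 FPKM in Control, 292.3, 276.8 and 295.5 FPKM in HN, and 551.2, 650.9 and 400.7 FPKM in PEC libraries. All 4 were called lower in HN than in Control, higher in PEC than in HN, and lower in PEC than in Control. The removal of length and GC dependence left 3 of them higher in PEC than in HN, Slc5a2 (0.35) being lost, and 3 lower in PEC than in Control, Cubn (-0.30) being lost.

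Among leukocytes, the 6 T cell markers, led by Trac, summed to 1.68 to 2.77 FPKM in Control, 11.4 to 19.3 in HN and 7.95 to 10.2 in PEC libraries. All 6 were called higher in HN and in PEC than in Control, and Cd3d and Cd4 were called lower in PEC than in HN. The 4 B cell markers, led by Cd79b, summed to at most 3.34 FPKM in any library, with 2 called higher in HN than in Control and 0 called between PEC and HN, or 1 (Cd79b, -0.78) with length and GC dependence removed. The dendritic cell markers summed to 6.02 to 6.79 FPKM in HN and 5.26 to 10.4 FPKM in PEC libraries, with 2 of 5 called higher in HN and 4 of 5 in PEC than in Control, and 0 of 5 called between PEC and HN. Cd209a had 6.75 and 5.84 FPKM in PEC replicates 1 and 2 and 1.0 FPKM in replicate 3, and Zbtb46 was the most abundant of them in Control and HN. Of the 7 neutrophil markers, led by S100a9, 4 were tested, 1 was called higher in HN than in Control and 0 were called between PEC and HN. The defining neutrophil genes Ly6g, Mpo and Elane had at most 8, 5 and 4 counts in any library.

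Of the 4 markers of the distal nephron and collecting duct, 3 were called lower in HN than in Control, and Umod, the most abundant, was not called. In PEC kidneys 1 of the 4 was called higher than in HN and 2 were called lower than in Control. With length and GC dependence removed, Aqp2 (-0.81) was no longer called lower in PEC than in Control. The summed FPKM of the 4 markers was 1220.5 to 1520.7 in Control, 1477.1 to 1685.1 in HN and 1426.3 to 1484.9 in PEC libraries. Umod led this sum, with means of 878, 1333 and 1153 FPKM in Control, HN and PEC. Of the 4 endothelial markers, Kdr was called lower in HN and in PEC than in Control, and Emcn was called higher in PEC than in HN. With the removal Emcn was also called higher in PEC than in Control (0.69). The endothelial markers summed to 31.3 to 35.2 FPKM in Control, 42.2 to 44.4 FPKM in HN and 31.2 to 47.8 FPKM in PEC libraries.

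The genes whose pattern over the 9 libraries was most like that of a macrophage gene were found by Pearson's r of log2 counts scaled to library size. For Adgre1 they were Plekha2, Fyb and Ptgfrn (r = 0.998, 0.994 and 0.994), for Mrc1 Pdgfb, Cmtm7 and Serpine2 (r = 0.999, 0.997 and 0.996), and for Gpnmb Plod3, Car13 and C1qa (r = 0.998, 0.994 and 0.992). The libraries fell into 3 groups and r describes likeness across them, with no test. Pdgfb, most like Mrc1, had 5.93 FPKM in Control, 33.5 FPKM in HN and 15.7 FPKM in PEC kidneys.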

How the data were processed

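RNA-seq was done on kidney RNA after poly(A) selection, in 3 Control, 3 HN and 3 PEC libraries. The labels name separate samples, and neither they nor the study's account of the sequencing state that each library is 1 mouse. The deposited counts are raw reads assigned to each gene. The deposited FPKM stand in the same table and follow from them by gene length and library size. The submitters' processing notes name Bowtie 0.12.2 and the builds mm8 and mm9, whereas the coordinates in the table are those of GRCm38. Whether counting used strand is not given in the sources used here.

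Counts were tested with edgeR 4.0.16 (glmQLFit and glmQLFTest, TMM factors, filterByExpr) in R 4.3.3, in 1 fit over the 9 libraries, with Benjamini-Hochberg adjustment over all 21392 tested genes. DESeq2 1.42.0 and limma 3.58.1 on log2(FPKM + 1) and log2(FPKM + 0.1) were alternatives, as were other scalings, filters and thresholds, removal of length or GC dependence by a spline of 5 degrees of freedom, and each replicate left out in turn. Removal of both together, for genes and for ratios, was chosen after the data had been seen. Exact permutation tests used scipy 1.17.1. The steps were tested on simulated counts.

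All 10 macrophage genes were named. From each other list (macrophage and monocyte genes, colony-stimulating factor axis, resident, alternative and classical activation, lipid handling and lysosomes, monocyte recruitment, and markers of neutrophils, T, B and dendritic cells, proximal tubule, distal nephron, endothelium and fibroblasts), up to 4 genes with the highest mean FPKM and each gene called against most of its list were named. Ptprc, Lyz1 and Hmgxb3 were added as reference or neighbours, and Cd86, Ccl7, Vsig4, Csf3, Il6, Tnf, Il23a, Ccl22, Pdcd1lg2, Ly6g, Mpo, Elane, F13a1, Ccr2, Ms4a7, Fcgr3, Aif1, Ccl12 and Mmp12 were singled out after their values were seen. The genes and lists were chosen with earlier results of these data known.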

Additional observations from a re-analysis of the deposited data

How the results depend on the processing

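Over the alternatives, 540 values of log2 fold change of the 10 macrophage genes kept their direction and their side of the threshold, 9 lost the call, 8 gained it and 4 changed sign. Scaling moved all genes together: with library totals only, the median over all tested genes was log2 0.56 for HN against Control, -0.21 for PEC against HN and 0.40 for PEC against Control, a shift that each gene shares. Adgre1 stayed between -2.31 and -1.84, Mrc1 between -2.02 and -1.31 and Lyz2 between -1.40 and -1.02 for PEC against HN, called throughout. Csf1r lost that call at a fold of at least 2, as it did for PEC against Control. For Lgals3, 1 gene was called higher in PEC than in HN in place of 0 with DESeq2 (adjusted p = 0.0223), a mean FPKM of at least 0.5 (0.0454), only the groups compared (0.00781) and the unadjusted p, where adjusted p over all alternatives ran from 0.00781 to 0.297. Trem2 was called lower with DESeq2 (adjusted p = 0.0417), log2(FPKM + 0.1) in limma (0.0132) and only the groups compared (0.0255), over a range of 0.00242 to 0.473. Cd163 reversed for PEC against Control, to -0.0106 with GC dependence removed, and to -0.05, -0.04 and -0.22 without Control replicate 4, Control replicate 5 or PEC replicate 3, all within its error; with 1 replicate left out it ran from -0.22 to 0.22. It fell under the minimum of mean FPKM and has no value with limma.

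For HN against Control, 3777 genes were called higher and 3154 lower (54.5% higher). These were 7707 and 1287 with library totals only (85.7% higher), 5906 and 1191 with log2(FPKM + 0.1), 1902 lower at a fold of at least 2, and 1024 lower with log2(FPKM + 1), where 81.9% were higher. For PEC against HN, 2875 were called higher and 3266 lower (46.8% higher). These became 1771 and 1823 at a fold of at least 2, 1356 higher with log2(FPKM + 1) (28.6% higher) and 1683 higher with log2(FPKM + 0.1). With length and GC dependence removed they were 2565 and 2351, so that the balance turned to 52.2% higher. With library totals only, 29.6% were higher. For PEC against Control, 4053 higher and 3731 lower (52.1% higher) became 6414 and 1962 with library totals only (76.6% higher), 2089 lower at a fold of at least 2, and 1485 (70.7% higher) and 1919 lower with log2(FPKM + 1) and log2(FPKM + 0.1). The cause was not tested.

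Log2 ratios moved when Csf1r replaced Adgre1 as reference. For HN against Control they were then 1.82 (Cd68), 0.82 (Csf1), 2.45 (Mrc1), 3.12 (Lyz2), 0.52 (Cd163), 3.59 (Trem2), 3.33 (Gpnmb) and -0.51 (Lgals3). For PEC against HN they were 0.46, 0.29, -1.18, -0.45, -1.48, 0.00130, -0.88 and 1.45 in the same order. With Ptprc as reference, HN against Control gave 0.97 (Cd68), -0.84 (Csf1r), -0.0295 (Csf1), 1.60 (Mrc1), 2.27 (Lyz2), -0.32 (Cd163), 2.75 (Trem2), 2.48 (Gpnmb) and -1.35 (Lgals3), and PEC against HN gave 1.76 (Cd68), 0.13 (Mrc1), 0.86 (Lyz2), 1.30 (Trem2) and 2.75 (Lgals3). Groups that did not overlap with Adgre1 as reference (exact p = 0.1) then overlapped for Lyz2 (exact p = 0.3) and Trem2 (0.2) in PEC against HN, and for Csf1 (1) and Cd163 (0.6) in HN against Control. With Csf1r as reference they overlapped for Csf1 (0.5) and Trem2 (1) in PEC against HN, and for Cd163 (0.5) and Lgals3 (0.4) in HN against Control. The shift follows from the different change of the reference genes. With length and GC dependence removed, the ratio of Cd68 to Adgre1 for PEC against HN was 1.505. Ratios to Csf1r and Ptprc were not computed with the removal and carry any dependence on length. No paired analysis was possible because no groups share more than 1 replicate number. Depth limits Cd163, Trem2 and Gpnmb in Control, with 8 to 51 counts per library.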
